A study of Homo sapiens with 8 samples.

Results

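The adherens junction genes described here are 9 of the 30386 genes in the deposited table: the cadherins CDH5 and CDH2, the catenins CTNNA1, CTNNB1, CTNND1 and JUP, the adhesion molecules PECAM1 and NECTIN2, and the nectin-binding scaffold AFDN. They were taken by gene symbol, and each symbol matched a single row. RNA sequencing compared 4 samples labelled iEC, endothelial cells, with 4 labelled iREC, retinal endothelial cells. All 8 were differentiated from the human pluripotent stem cell line WTC-TJP1, an established line, and sampled at passage 1. The cell-type label is the same for both groups, the series text describes the iREC as a matched differentiation, and the steps and agents that set the iREC apart are not given in the sources used here. Replicates carry the letters C, D, E and F in each group, and a run of 4 values is in that letter order throughout. The labels do not say that the samples are separate cultures, so p-values measure only the spread between these samples, which may be technical.

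Adherens junctions hold neighbouring cells together through cadherins, whose outer domains bind each other across the gap and whose tails bind catenins. Beta-catenin or its relative plakoglobin sits on the distal tail and recruits alpha-catenin, which reaches actin, while p120-catenin binds closer to the membrane and slows removal of the cadherin from the surface. Endothelial cells use VE-cadherin as their own junctional cadherin, carry N-cadherin mostly outside the junction where it meets mural cells, and add PECAM1, an immunoglobulin-family molecule at cell borders that takes part in flow sensing and leukocyte passage. Nectins and the scaffold afadin form a neighbouring adhesion system that is tied to the same actin.

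The iEC libraries held 14877502 to 16971865 counts and the iREC libraries 13739364 to 15987839. The summed level of 10 endothelial markers, none of them among the 9 genes, was 4159 to 5901 CPM (counts scaled to equal library size with TMM factors) in iEC and 3564 to 8506 CPM in iREC, the lowest being iREC F. KDR made up the largest part of that sum, at 1332 to 3807 CPM. The 10 markers did not move together. edgeR called TEK, EMCN and CLDN5 higher in iREC and ROBO4, EGFL7 and ESAM lower, the last 3 in the direction of CDH5 and PECAM1. CLDN5 was called narrowly (adjusted p by edgeR 0.049), its groups overlapped, and the call held in 1 of the 8 fits without a sample. iREC F also stood apart in markers of other cell types. Its 8 epithelial markers summed to 4924 CPM against 302 to 1118 in the other iREC samples. Its 6 mesenchymal markers summed to 2654 against 70.9 to 447, and its 10 mural markers to 1731 against 442 to 882. In iEC these sums were 391 to 1174, 21.5 to 230 and 173 to 239 CPM. The mural sum was thus higher in every iREC sample than in any iEC sample. TAGLN, on the mural list, was 732, 557, 318 and 870 CPM in iREC and 25.4 to 58.2 CPM in iEC. On that list edgeR called TAGLN, NOTCH3 and MYH11 higher and RGS5 lower. KRT8 and KRT18 made up most of the epithelial sum in iREC F, at 3025 and 1538 CPM. CDH1 was 81.6, EPCAM 3.28, ESRP1 0.328 and CLDN4 0 CPM there, while KRT19 was 207 and KRT7 69.3 CPM. In iEC, KRT8 was 145 to 598 CPM and KRT18 228 to 465 CPM. Results that rest on iREC F are given with and without it. Cardiomyocyte markers summed to at most 7.99 CPM in any sample. The 6 pluripotency markers summed to 64.8, 188, 86.2 and 519 CPM in iREC and 47.9 to 104 CPM in iEC. LIN28A made up 482 CPM of the iREC F sum, where POU5F1 was 0.393 and NANOG 0 CPM. edgeR called 2 of the 6 higher, LIN28A among them (in 5 of the 8 fits without a sample), and 1 lower. The 7 neural markers summed to 1290 to 1512 CPM in iEC and 285 to 643 CPM in iREC. Nearly all of that was NES, which edgeR called lower. The part of both lists in the 9 genes was not tested. Blood cells also carry PECAM1. The 8 blood markers summed to 72.2 to 168 CPM in iEC and 49.6 to 92.2 CPM in iREC, nearly all of it ITGB3 (46.2 to 120 and 27.5 to 70.9 CPM) and RUNX1 (24.3 to 46.4 and 13.9 to 16.2 CPM), of which edgeR called RUNX1 lower. The other 6 were each at most 2.75 CPM in any sample. Among them PTPRC was at 0 in every iEC sample and at 0.794 to 2.75 CPM in iREC. It passed the filter only through iREC, and edgeR called it higher (adjusted p by edgeR 0.00243). The part of blood markers in the PECAM1 result was not tested. In these bulk samples, fewer cells of a type and less RNA per cell cannot be told apart.

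PECAM1, CDH5 and CTNNA1 were lower in iREC, and AFDN and NECTIN2 were higher. edgeR's quasi-likelihood test called these 5 of the 9 genes (adjusted p under 0.05), 2 higher and 3 lower, where it called 25.0% of the 15330 tested genes, 13.2% higher and 11.7% lower. CTNNB1 and CTNND1 differed by less than the spread between replicates, and CDH2 and JUP were not called. The 4 iEC and 4 iREC values did not overlap in the same 5 genes, against 29.1% of tested genes (14.5% higher and 14.6% lower). All 9 passed the filter on low counts, and their median log2 fold change was -0.11, against 0.02 over all tested genes. The number called ran from 2 to 5 when a sample was left out, and it was 2 (AFDN and PECAM1) without iREC D, when 2660 genes were called in all, and 3 without iEC E. Without iREC F it was 5 of 9, with JUP in and NECTIN2 out, against 26.7% of genes tested. DESeq2 called 6 against its background of 22.4%, and limma-voom 5 against 24.6%. The authors' deposited table lists 6 of the 9 with an adjusted p under 0.05, JUP being the sixth, where it lists 16.3% of its genes. The 16.3% is over all 30386 genes, and the 22.4% of DESeq2 is over 22080. Both include genes too low for the filter behind the 25.0%, which all 9 passed, so these shares are not alike.

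**Figure D1:**
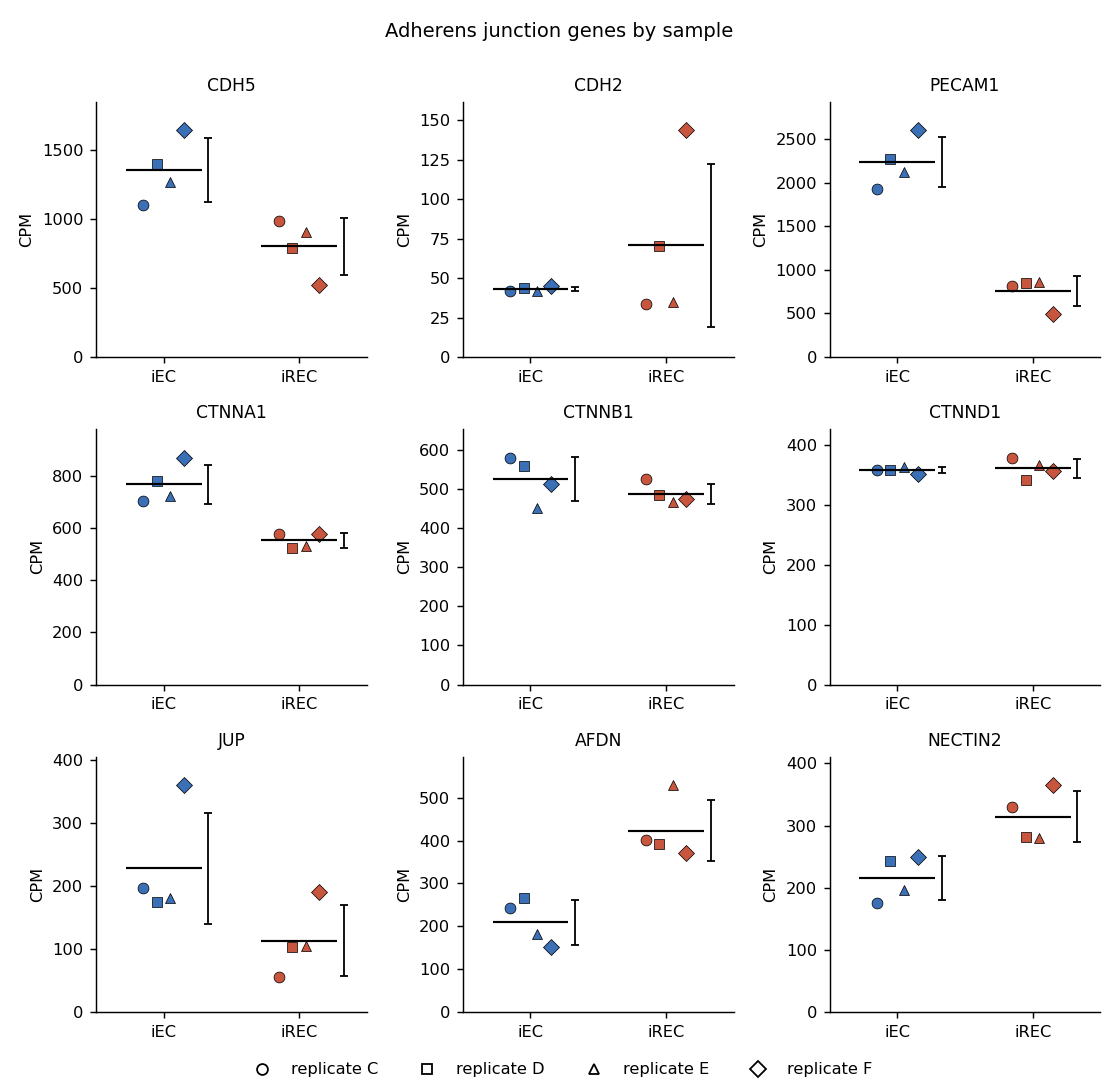
CPM of the 9 genes in each sample, by group; points are samples with a shape for each replicate letter, horizontal lines are group means and the bars beside them are SD (n = 4). PECAM1, CDH5 and CTNNA1 sit lower in every iREC sample, AFDN and NECTIN2 sit higher, CTNND1 stays near 360 CPM, and iREC F reaches 144 CPM in CDH2.

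CDH5 encodes VE-cadherin, the cadherin that defines the endothelial adherens junction (ENSG00000179776, GRCh38 chromosome 16, 66366622 to 66404786, plus strand). Its level was 1098, 1398, 1267 and 1642 CPM in the iEC samples and 983, 790, 906 and 517 CPM in the iREC samples. The groups did not overlap, although iEC C and iREC C lay close together. The group means were 1351 ± 229 and 799 ± 204 CPM (SD, n = 4), and CDH5 fell by a log2 fold change of -0.76 ± 0.21 (SE; adjusted p by edgeR 0.0298, 95% interval -1.24 to -0.28). The call was lost without iEC D (adjusted p by edgeR 0.0600), iEC E (0.0608), iEC F (0.0667) or iREC D (0.0785). Without iREC F, the lowest sample, the log2 fold change was -0.60 and the edgeR adjusted p 0.0321.

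PECAM1 (ENSG00000261371, chromosome 17, 64319415 to 64413776, minus strand) showed the widest gap between the groups among the 9 genes. Its level was 1927, 2275, 2126 and 2605 CPM in the iEC samples and 815, 854, 855 and 493 CPM in the iREC samples. The groups lay far apart, and iREC F was below the other iREC samples. The group means were 2233 ± 286 and 754 ± 175 CPM (SD, n = 4), so that PECAM1 fell with a log2 fold change of -1.57 ± 0.20 (SE; adjusted p by edgeR 0.000632). The call held in all 8 fits that each left out a sample, with log2 fold changes of -1.64 to -1.41, the last without iREC F.

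The balance of PECAM1 to CDH5 also differed. On the deposited FPKM, which are scaled by gene length, the PECAM1 to CDH5 ratio was 1.38, 1.27, 1.32 and 1.24 in the iEC samples, and 0.650, 0.847, 0.739 and 0.747 in the iREC samples. Thus PECAM1 transcripts outnumbered CDH5 transcripts in each iEC sample and were fewer in each iREC sample. The ratio does not depend on library scaling, and its fold between the groups was 0.571, or 0.570 without iREC F. In the rank of all listed genes by FPKM, PECAM1 stood between places 69 and 92 in iEC and between 237 and 590 in iREC, and CDH5 between 102 and 146 and between 155 and 432.

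CDH2 encodes N-cadherin (ENSG00000170558, chromosome 18, 27950966 to 28177446, minus strand). It was nearly constant in iEC, at 42.0, 43.7, 42.0 and 44.7 CPM in C, D, E and F, and spread widely in iREC, at 33.5, 70.6, 34.9 and 144 CPM. The coefficient of variation was 3.10% in iEC and 73.1% in iREC. iREC C and E were below every iEC sample, and D and F above. With a log2 fold change of 0.71 ± 0.42 (SE) it was not called (adjusted p by edgeR 0.250, 95% interval -0.24 to 1.66), and without iREC F the log2 fold change was 0.10 (adjusted p by edgeR 0.795).

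The 2 iREC samples with high CDH2 were also those with the highest levels of genes typical of epithelial and mesenchymal cells. KRT8, a simple keratin, was 98.6, 602, 195 and 3025 CPM in the iREC samples, and COL3A1, a fibrillar collagen, was 32.5, 254, 89.9 and 1641 CPM. CDH1, the epithelial E-cadherin, was 0, 5.14, 1.16 and 81.6 CPM in the same samples and at most 0.0650 CPM in any iEC sample. EPCAM, a defining epithelial marker, stayed at 0.489 to 3.28 CPM in iREC. CDH5 was highest in iREC C (983 CPM) and lowest in iREC F (517 CPM). The part of these markers in the CDH2, CDH5 and PECAM1 values was not tested.

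The CDH2 to CDH5 ratio of FPKM was 0.0335 to 0.0470 in iEC, and 0.0419, 0.110, 0.0473 and 0.342 in the iREC samples. iREC C lay inside the iEC range and iREC E just above it, so the groups overlapped, and the fold between group means of 2.34 was 1.52 without iREC F. CDH5 outnumbered CDH2 in all 8 samples. Among 18 cadherin genes summed on the same scale, CDH5 made up 87.1% to 88.2% in iEC, and 79.3%, 70.8%, 77.8% and 44.4% in the iREC samples. The summed cadherin FPKM was 203 to 314 in iEC and 180 to 200 in iREC. The iREC sums therefore lay close together while the share of CDH5 in them differed.

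**Figure D2:**
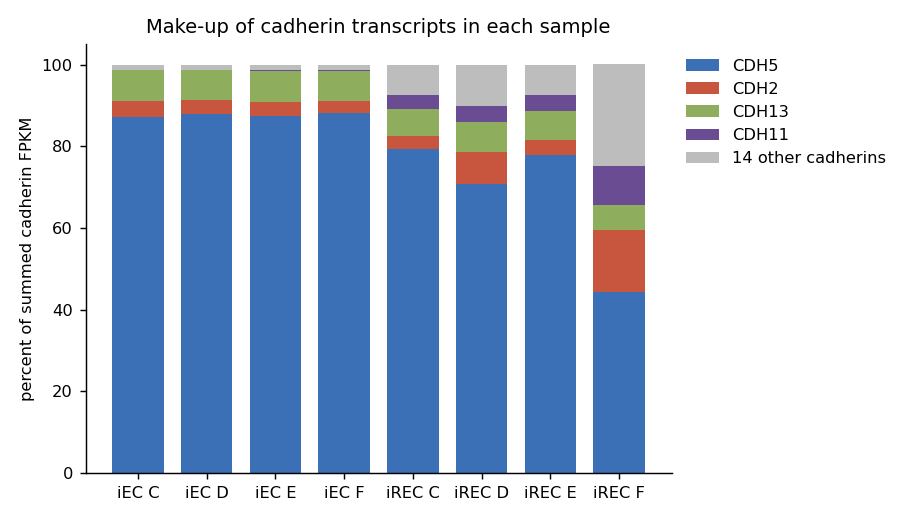
Percent of the summed FPKM of 18 cadherin genes taken by CDH5, CDH2, CDH13, CDH11 and the other 14 in each sample. CDH5 takes 87.1% to 88.2% in the iEC samples and 44.4% in iREC F, where CDH2, CDH11 and the other cadherins take larger shares.

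Of the catenins, CTNNA1, the alpha-catenin that links the complex to actin, was lower in iREC (ENSG00000044115, chromosome 5, 138610967 to 138935034, plus strand). It was 704, 780, 725 and 872 CPM in the iEC samples and 578, 525, 534 and 580 CPM in the iREC samples. The groups did not overlap, and iREC F was not apart from the others. The log2 fold change was -0.48 ± 0.12 (SE; adjusted p by edgeR 0.0163). Leaving out iREC D ended the call (adjusted p by edgeR 0.0616). LRRTM2 on the opposite strand covers 5.04% of the CTNNA1 exon bases, and at 0.504 CPM it could add little to them.

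CTNNB1 encodes beta-catenin (ENSG00000168036, chromosome 3, 41194741 to 41260096, plus strand) and CTNND1 encodes p120-catenin (ENSG00000198561, chromosome 11, 57753243 to 57819546, plus strand). CTNNB1 ran from 453 to 581 CPM in iEC and from 466 to 525 CPM in iREC, ranges that overlapped. Its log2 fold change was -0.11 ± 0.12 (SE; adjusted p by edgeR 0.532, 95% interval -0.38 to 0.16). CTNND1 was the steadiest of the 9 genes, at 358, 358, 363 and 351 CPM in the iEC samples and 379, 341, 367 and 357 CPM in iREC. Its log2 fold change was 0.01 ± 0.10 (SE; adjusted p by edgeR 0.929), the 95% interval was -0.20 to 0.23, and its sign changed to -0.01 without iREC C. AP001931.1, a gene on the same strand, shares 3.28% of the CTNND1 exon bases and was counted at 0.264 CPM.

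JUP encodes plakoglobin, which takes the place of beta-catenin on the cadherin tail and also serves desmosomes (ENSG00000173801, chromosome 17, 41754604 to 41786931, minus strand). It was 197, 175, 181 and 360 CPM in the iEC samples and 55.7, 103, 105 and 190 CPM in the iREC samples. The F sample was the highest of each group, and iREC F lay among the iEC values while the other iREC samples lay below them. JUP had a log2 fold change of -1.0 ± 0.37 (SE; 95% interval -1.83 to -0.18) and was not called (adjusted p by edgeR 0.0753). Without iREC F the log2 fold change was -1.38 and JUP was called (adjusted p by edgeR 0.0140). DESeq2 on all samples called it as well (adjusted p 0.0349).

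The catenins can be set against each other and against the cadherins on the length-scaled FPKM. The JUP to CTNNB1 ratio was 0.819, 0.756, 0.962 and 1.69 in the iEC samples, and 0.256, 0.514, 0.543 and 0.968 in iREC. iREC C, D and E lay below every iEC sample, and iREC F lay within the iEC range. The CTNND1 to summed CDH5 and CDH2 ratio was 0.143 to 0.215 in iEC and 0.256 to 0.355 in iREC, with no overlap. Its fold of 1.60 was 1.49 without iREC F. CTNND1 itself was level between the groups, so this ratio restates the lower summed FPKM of CDH5 and CDH2 (fold 0.625). For CTNNA1 the corresponding ratio was 0.354 to 0.422 in iEC and 0.387 to 0.575 in iREC, and for CTNNB1 plus JUP it was 0.344 to 0.468 and 0.328 to 0.687, both overlapping. These ratios are descriptions of single samples and carry no test.

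**Figure D3:**
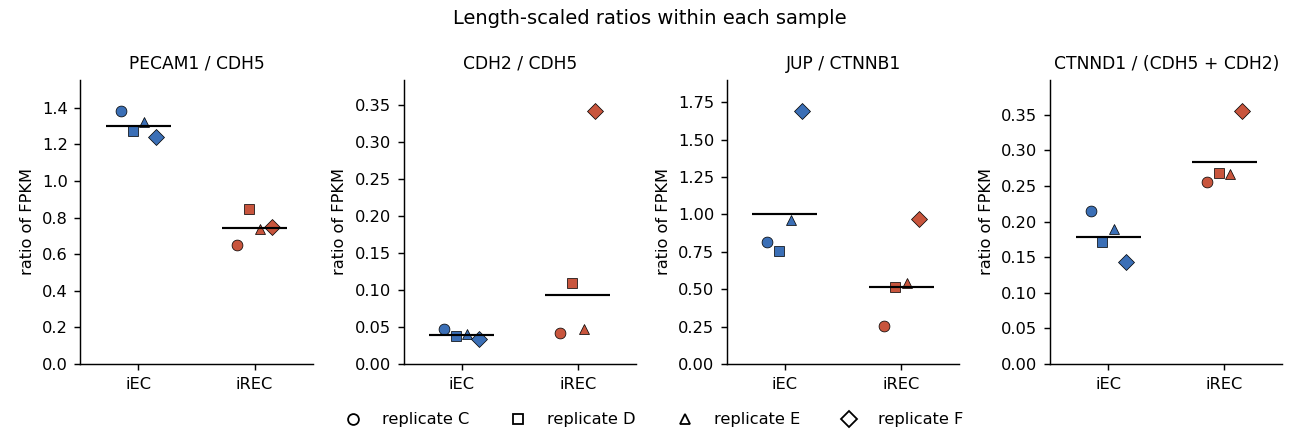
Ratios of deposited FPKM within each sample, by group; points are samples with a shape for each replicate letter and lines are geometric means. The PECAM1 to CDH5 ratio is 1.24 to 1.38 in iEC and 0.650 to 0.847 in iREC, while CDH2 to CDH5 and JUP to CTNNB1 overlap between the groups.

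The nectin and afadin genes went the other way from CDH5. AFDN encodes afadin, the actin-binding scaffold on the tails of nectins (ENSG00000130396, chromosome 6, 167826922 to 167972023, plus strand). It was 242, 265, 181 and 152 CPM in the iEC samples and 401, 392, 529 and 370 CPM in the iREC samples. The lowest iREC sample was above the highest iEC sample, and iREC E was the highest. The group means were 210 ± 52.4 and 423 ± 71.8 CPM (SD, n = 4), and AFDN rose by a log2 fold change of 1.01 ± 0.20 (SE; adjusted p by edgeR 0.00582), and the call held in all 8 fits without a sample (adjusted p by edgeR 0.00467 to 0.0202).

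NECTIN2 encodes a nectin that binds itself and other nectins across cell borders (ENSG00000130202, chromosome 19, 44846175 to 44889228, plus strand). It was 175, 243, 197 and 249 CPM in the iEC samples and 330, 282, 280 and 365 CPM in the iREC samples. The groups did not overlap, with iREC F the highest. The log2 fold change was 0.54 ± 0.15 (SE; adjusted p by edgeR 0.0302). The call was lost without iEC C (adjusted p by edgeR 0.0851), iEC E (0.0953), iREC C (0.0694), iREC D (0.0501) or iREC F (0.0596), and without the filter on low counts (0.0619). The AFDN to NECTIN2 ratio of FPKM was 0.167 to 0.377 in iEC and 0.277 to 0.517 in iREC, which overlapped.

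**Figure D4:**
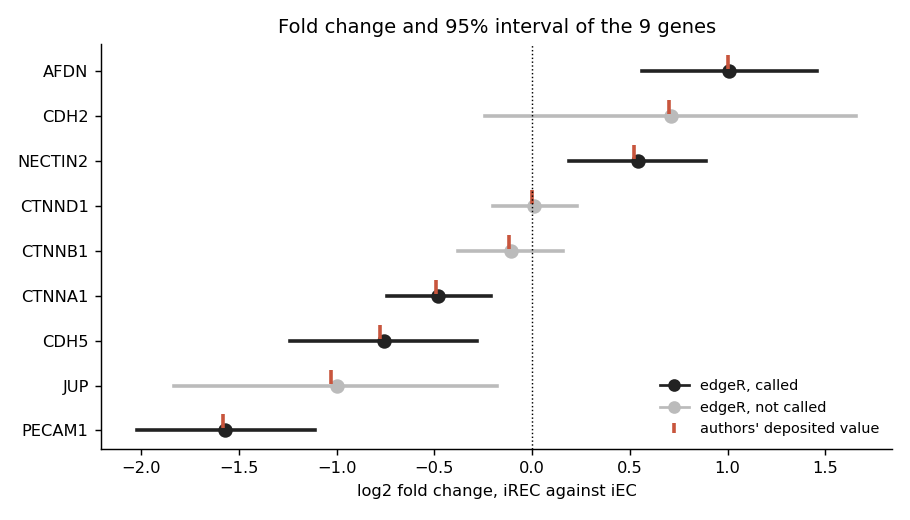
Log2 fold change of the 9 genes, iREC against iEC, with points and 95% intervals from edgeR (black where called, grey where not) and red ticks for the value in the authors' deposited table. The values run from -1.57 for PECAM1 to 1.01 for AFDN.

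The RefSeq promoter table (GRCh38.p14) held 11 start-site windows for 6 of the 9 genes, namely CDH2, CTNNA1, CTNNB1, JUP, AFDN and NECTIN2; CDH5, PECAM1 and CTNND1 had no entry. The 250 bases before each start were searched on both strands for 4 words, none part of another. The E-box CAGGTG is a known binding word of the SNAIL and ZEB families of cadherin repressors. Searched beside it were the ETS-type core CAGGAA, a further ETS-type core, CCGGAA, and the GATA-type core AGATAA. The window of AFDN, which rose, and the first of 4 windows of CTNNA1, which fell, are shown with every match in capitals. Both are on the strand of the gene, without the 7 bases of this CTNNA1 window that are exon. The AFDN window is chr6:167827385-167827634 and the CTNNA1 stretch is chr5:138753175-138753417, both on the plus strand and inside the deposited gene intervals.
AFDN: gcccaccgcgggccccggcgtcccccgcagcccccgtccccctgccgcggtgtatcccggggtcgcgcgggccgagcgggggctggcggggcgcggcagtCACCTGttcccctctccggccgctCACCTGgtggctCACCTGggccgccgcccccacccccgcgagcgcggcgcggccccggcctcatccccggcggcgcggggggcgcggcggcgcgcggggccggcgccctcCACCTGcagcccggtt
CTNNA1: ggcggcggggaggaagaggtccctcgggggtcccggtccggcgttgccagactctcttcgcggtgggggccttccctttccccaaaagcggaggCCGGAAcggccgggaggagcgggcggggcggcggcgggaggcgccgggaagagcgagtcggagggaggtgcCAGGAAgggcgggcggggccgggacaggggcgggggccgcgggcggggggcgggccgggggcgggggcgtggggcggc
The AFDN window held 4 E-boxes, all on the strand opposite to the gene, where the printed letters read CACCTG, at 150, 126, 114 and 16 bases before the start, and no other match. Of 35116 windows of the same length, 17.5% held at least 1 such E-box and 0.122% held at least 4. The CTNNA1 stretch held CCGGAA at 156 and CAGGAA at 85 bases before the start, words found in 14.5% and 24.1% of all windows. Among the 11 windows, a JUP window was the other with an E-box, at 54 and 43 bases before a second JUP start. Of the 250 bases of that window, 233 are JUP exon. GC content was 84.8% in the AFDN window and 80.0% in the CTNNA1 window shown, against a median of 58.0% over all windows. The other CTNNA1 windows had a GC content of 80.4%, 40.8% and 46.4%. Of these, the one at 40.8% held CAGGAA at 221 bases before its start, on the opposite strand, and the others held no match. A match of letters shows no binding.

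On the FPKM scale, the order of levels in iEC was PECAM1 (286 ± 42.9), CDH5 (221 ± 42.2), CTNNA1 (86.7 ± 10.4), NECTIN2 (57.3 ± 10.4), JUP (46.1 ± 19.1), CTNNB1 (43.8 ± 4.45), CTNND1 (40.3 ± 0.575), AFDN (15.1 ± 3.53) and CDH2 (8.65 ± 0.441; mean and SD, n = 4). Neighbours whose sample values overlapped were PECAM1 and CDH5, NECTIN2 and JUP, JUP and CTNNB1, and CTNNB1 and CTNND1. In iREC the order was CDH5 (129 ± 32.4), PECAM1 (95.4 ± 21.6), NECTIN2 (82.5 ± 11.4), CTNNA1 (61.7 ± 3.59), CTNND1 (40.4 ± 1.83), CTNNB1 (40.2 ± 2.15), AFDN (30.3 ± 4.99), JUP (22.6 ± 11.3) and CDH2 (14.1 ± 10.4). There CDH5 and PECAM1, PECAM1 and NECTIN2, CTNND1 and CTNNB1, AFDN and JUP, and JUP and CDH2 overlapped. AFDN therefore moved from below JUP in every iEC sample to among the JUP values in iREC, and NECTIN2 from below CTNNA1 to above it.

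The genes whose pattern over the 8 samples was closest to CDH5 were PREX1, TECPR1 and FAM69B, among 9956 protein-coding genes with at least 10 CPM in a group. Likeness was the root mean square difference of log2 CPM values centred on each gene's mean, and it was 0.103, 0.110 and 0.112. PREX1, an exchange factor for Rac, was 341, 404, 326 and 465 CPM in the iEC samples and 249, 221, 255 and 162 CPM in iREC. For PECAM1 the closest were TRIB3, ZDHHC14 and CD109 (0.193, 0.201 and 0.203), and for CDH2 they were SDC4, CNKSR3 and PPME1 (0.199, 0.232 and 0.244). SDC4, a heparan sulphate proteoglycan of focal adhesions, shared the low iREC C, at 16.3 CPM, and the high iREC F, at 58.4 CPM.

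The other genes of the junction were counted in lists of fixed membership, by the same edgeR test. That test called 25.0% of all tested genes, 13.2% higher and 11.7% lower, and each list count stands against that share. Of 16 other cadherins, 8 passed the filter and all 8 were called, 7 higher and 1 lower, with a median log2 fold change of 3.43. Genes near 0 in iEC could pass the filter only through iREC, so that count supports nothing on its own. CDH11, a mesenchymal cadherin, was 3.25 to 9.81 CPM in iEC and 97.9, 99.1, 100 and 245 CPM in the iREC samples (log2 fold change 4.61 ± 0.48, SE; adjusted p by edgeR 0.000223). All 4 iREC samples were far above iEC, and iREC F was the highest. CDH8 was at most 1.56 CPM in iEC, and in iREC its lowest value was 6.87 CPM (C) and its highest 87.6 CPM (F). CDH6 had 0 counts in every iEC sample, where 3 counts would be 0.178 to 0.215 CPM, and 0.983 to 6.72 CPM in iREC, so it was at least 19-fold higher over the group means. CDH13, the membrane-anchored T-cadherin of endothelium that has no catenin-binding tail, fell from 210 ± 32.8 to 146 ± 10.3 CPM (SD, n = 4; adjusted p by edgeR 0.0179), a call that ended when iREC D was left out. CDH3 was below the filter and, like CDH1, was high in iREC F alone, at 47.9 CPM against at most 2.64 CPM elsewhere.

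Among 8 other catenins and armadillo relatives, 6 were tested and 4 called, 3 higher and 1 lower (median 0.32), against 25.0% of all tested genes. Under a stricter filter on low counts 5 were tested and 3 called, and the median changed sign to -0.17. ARVCF, a p120-catenin relative, was 107 ± 13.2 CPM in iEC and fell to 44.8 ± 5.62 CPM in iREC (log2 fold change -1.26 ± 0.14, SE; adjusted p by edgeR 0.000295). PKP4, another p120 relative, rose from 48.3 ± 12.3 to 86.4 ± 13.3 CPM, and CTNNAL1, an alpha-catenin-like gene, from 64.3 ± 11.1 to 118 ± 12.9 CPM (SD, n = 4). Both were called by edgeR in the fit on all samples and in each of the 8 fits without a sample. CTNNA3 had at most 3 counts in any iEC sample and was at least 10.2-fold higher, but it passed the filter only through iREC, so its place in the count supports nothing. Of 6 tested nectins and nectin-like molecules, CADM3 alone was called, from 0.381 ± 0.207 to 3.70 ± 2.89 CPM (SD, n = 4). CADM3 likewise passed the filter only through iREC, and the stricter filter removed it and left no gene of the list called.

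**Figure D5:**
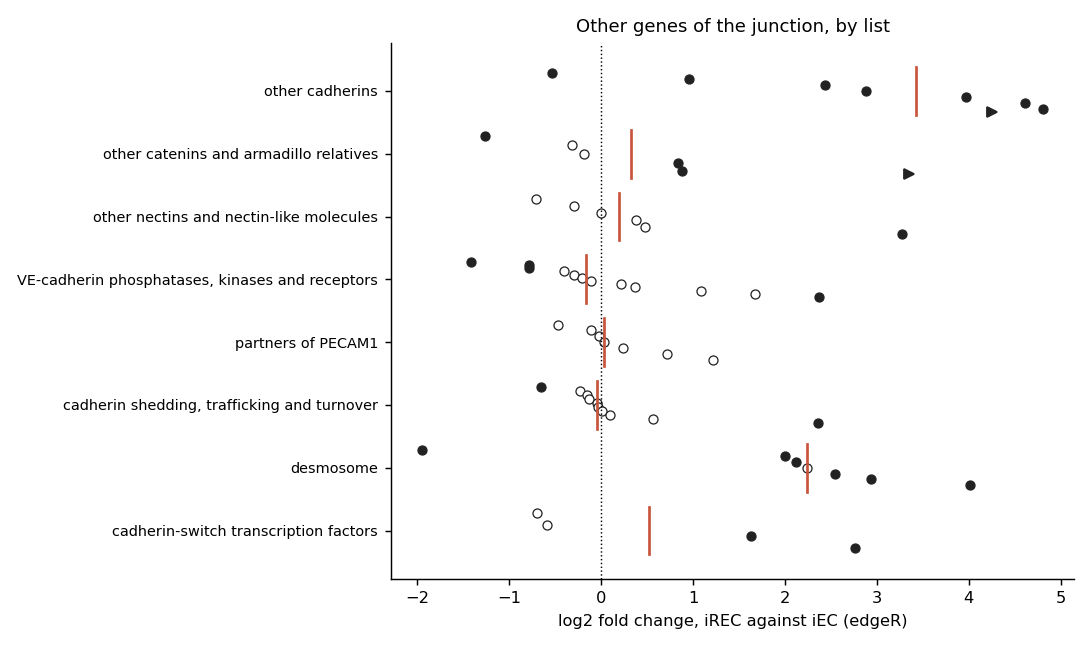
Log2 fold change of tested genes in 8 lists, a row for each; filled points were called by edgeR, open points were not, triangles are lower bounds for CDH6 and CTNNA3, and red lines are list medians. The other cadherins and the desmosome list have medians of 3.43 and 2.24, and the partners of PECAM1 have a median of 0.03, or -0.06 without iEC E, with no call in either.

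Among actin linkers of the junction, PDLIM1, an alpha-actinin-binding protein, rose from 42.7 ± 11.2 to 171 ± 47.8 CPM, and the junction scaffold MAGI1 from 35.5 ± 14.5 to 92.3 ± 12.1 CPM (SD, n = 4). Their edgeR adjusted p were 0.000396 and 0.00605. The vinculin gene VCL was also called, though in 3 of the 8 fits without a sample, and so was EPB41L5, while the zyxin gene ZYX and the talin gene TLN1 differed by less than the replicate spread, at 309 and 354 CPM and at 1211 and 1220 CPM.

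Of 12 phosphatases, kinases and receptors that act on VE-cadherin, 4 were called, 1 higher and 3 lower (median -0.16). This count lies near the 25.0% called over all tested genes and is no result about the list. PTPRB, the phosphatase VE-PTP that binds VE-cadherin, was 104, 143, 92.8 and 85.0 CPM in the iEC samples and 420, 697, 829 and 249 CPM in iREC. All iREC samples were above all iEC samples, with iREC F the lowest of them (log2 fold change 2.37 ± 0.36, SE; adjusted p by edgeR 0.00153). The Src-family kinase genes YES1 and FYN fell from 238 ± 31.8 to 89.2 ± 5.23 CPM and from 202 ± 42.8 to 117 ± 11.8 CPM, and the focal adhesion kinase gene PTK2 from 284 ± 37.5 to 166 ± 7.78 CPM (SD, n = 4). SRC itself was 32.8 ± 6.96 and 26.6 ± 5.19 CPM and was not called (adjusted p by edgeR 0.300), nor was the receptor gene KDR at 2033 ± 578 and 2627 ± 1016 CPM (0.424).

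None of the 7 tested partners of PECAM1 was called by edgeR (0, against 25.0% of all tested genes). By edgeR 2 had an unadjusted p under 0.05, CD99 and GAB1, and DESeq2 and limma-voom called 1 each. CD99, which works with PECAM1 in leukocyte passage, was 720 ± 136 and 521 ± 72.0 CPM (SD, n = 4; adjusted p by edgeR 0.0667), and PTPN11, the phosphatase SHP2 that binds the PECAM1 tail, 296 ± 22.5 and 274 ± 52.8 CPM (adjusted p by edgeR 0.629). Of 10 genes of cadherin shedding, trafficking and turnover, 2 were called (median -0.04), a count near the 25.0% called over all tested genes. The endocytic adaptor gene DAB2 rose from 149 ± 51.2 to 768 ± 214 CPM and NUMB fell from 138 ± 21.7 to 87.3 ± 6.89 CPM (adjusted p by edgeR 0.000477 and 0.00722). ADAM10, which cuts VE-cadherin, was not called, at 289 ± 42.5 and 310 ± 29.1 CPM (adjusted p by edgeR 0.616).

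Desmosomes join epithelial and cardiac cells and share plakoglobin with the adherens junction. Of 12 desmosome genes, 7 were tested and 6 called, 5 higher and 1 lower (median 2.24), against 25.0% of all tested genes. But 2 were called without iEC E and 3 by limma-voom. DSP, the desmoplakin gene, was 10.9 to 46.8 CPM in iEC and 120, 129, 102 and 416 CPM in the iREC samples. The desmocollin gene DSC3 was 2.73 to 10.7 CPM in iEC and 7.92, 56.2, 18.6 and 240 CPM in iREC, and PKP2 was 5.87 to 7.74 CPM and 16.1, 23.8, 13.4 and 107 CPM. DSP, DSC3 and PKP2 had their highest iREC value in F, and DSC2 had its lowest there, at 88.3 CPM. That sample had 4924 CPM of epithelial markers, mostly KRT8 and KRT18, with EPCAM, ESRP1 and CLDN4 at 3.28, 0.328 and 0 CPM. PERP fell from 86.5 ± 50.5 to 22.4 ± 15.1 CPM (SD, n = 4), with groups that overlapped and a call in 3 of the 8 fits without a sample. Without iREC F, 6 of the 7 were called, but the list median was 1.37, and the log2 fold change of PKP2 was 1.37 in place of 2.54 and that of DSC3 2.46 in place of 4.01. The part of the epithelial markers in these values was not tested.

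Of 6 transcription factors known for repressing CDH1 and for switches between cadherins, 4 were tested and 2 called, both higher. Over all tested genes 25.0% were called. SNAI2 rose from 4.06 ± 2.79 to 27.5 ± 12.5 CPM and ZEB2 from 68.0 ± 26.8 to 211 ± 58.4 CPM (SD, n = 4; adjusted p by edgeR 0.00426 and 0.00367). SNAI2 was highest in iREC F, at 42.7 CPM, and ZEB2 was lowest there among iREC, at 133 CPM. SNAI1, at 4.82 ± 1.22 and 2.96 ± 1.19 CPM, and ZEB1, at 184 ± 47.2 and 123 ± 49.4 CPM, were not called (adjusted p by edgeR 0.180 and 0.206).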

How the data were processed

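Poly-A RNA of 8 samples (4 iEC, 4 iREC) had been sequenced from a dUTP protocol, per the labels' protocols. The submitters' processing notes name fastp, HISAT2 2.0.5 and hg38; the counting program and its strand setting are not given in the sources used here. The deposited table holds raw read counts per gene, FPKM, a normalized signal (count divided by a factor per sample) and, per the file headers, log2 fold changes and p-values of the authors, whose test is not stated. Identifiers, starts and ends of the 9 genes matched GENCODE 29 on GRCh38.

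Counts were filtered with filterByExpr, scaled by TMM and compared with edgeR 4.0.16 (quasi-likelihood F-test, all 8 samples, Benjamini-Hochberg over 15330 genes, called under 0.05). CPM use TMM-scaled libraries, and log2 CPM a prior count of 2. Levels were compared between genes only on the deposited FPKM. The test was tried on simulated counts. Alternatives were DESeq2 1.42.0, limma-voom (limma 3.58.1), other scalings and filters, a replicate block, a fit to protein-coding genes and fits without each sample. Members and lists were chosen with earlier results of these data known. Named genes were the 9, up to 3 called per direction and list with at least 1 CPM in a group, and the 3 nearest patterns to CDH5, CDH2 and PECAM1; TEK, EMCN, CLDN5, ROBO4, EGFL7, ESAM, ITGB3, RUNX1, GAB1, LRRTM2, AP001931.1, KRT8, COL3A1, CDH1, CDH3, EPCAM, PTPRC, ITGA2B, VCL, EPB41L5, ZYX, TLN1, SRC, KDR, CD99, PTPN11, ADAM10, DSC2, SNAI1 and ZEB1 were added to these with their values in view. TAGLN, NOTCH3, MYH11, RGS5, KRT18, KRT19, KRT7, ESRP1, CLDN4, LIN28A, POU5F1, NANOG and NES were added in the same way. Words of 75 bases from the transcripts of CDH5, PECAM1, CTNNB1, JUP and AFDN occurred in no other gene, and for the other 4 genes at most 3.32% did. The counts of 2 further lists are not reported here. Intervals cover the spread between samples.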

Additional observations from a re-analysis of the deposited data

Results flagged for a closer look

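In groups of 4 samples, a value was singled out where its distance to the nearest sample, over the range of all 4, passed the 95% limit of Dixon's test. Of 46 groups of gene levels, ratios and shares, 6 had such a value, where chance gives about 1 in 20. In iREC F, PECAM1 was 493 CPM against 815 to 855 in the other iREC samples. The same sample had the highest CTNNA1 and CTNND1 ratios to summed CDH5 and CDH2, 0.575 against 0.387 to 0.412 and 0.355 against 0.256 to 0.269. Its share of cadherin FPKM in CDH11 was 9.56% against 3.59% to 4.03%, and that in the 14 lesser cadherins 24.8% against 7.35% to 10.1%. These 5 values share a sample and, for the ratios and shares, their terms, so they are not separate events. In iEC F, JUP was 360 CPM against 175 to 197 in the other iEC samples. The epithelial markers there summed to 1174 CPM against 391 to 674, mostly KRT8 (598 CPM) and KRT18 (465 CPM).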

How the results depend on the processing

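PECAM1 and AFDN kept their direction and call under all 17 alternatives, CTNNB1 and CDH2 kept their direction and were called in none of them, and the count of 3829 called genes stayed within 1.5 times, from 2660 to 4214 with a sample left out. CDH5 was not called (log2 fold change, edgeR adjusted p) with the replicate block (-0.78, 0.0803) and in 4 fits without a sample, whose log2 fold changes over all 8 ran from -0.88 to -0.60. CTNNA1 was not called with the replicate block (-0.47, 0.0503) or without iREC D (range over the 8 fits -0.53 to -0.41). JUP was called by DESeq2 (-1.03), with the replicate block (-1.07, 0.0144) and without iREC F (range -1.38 to -0.70). NECTIN2 was not called without a filter (0.52) and in 5 fits without a sample (range 0.44 to 0.61). CTNND1 changed sign without a filter (-0.007) and without iREC C (-0.01; range -0.01 to 0.04). The causes of these changes were not tested. A fit without a sample also has fewer samples, and the effect of that was not tested apart from which sample was left out. Deviations of same-letter samples correlated at 0.17, -0.08, 0.03 and 0.25 for C, D, E and F across genes. Pairs with different letters ran from -0.22 to 0.18. With a single pair per letter, these values cannot decide whether a letter marks a shared batch. The replicate block called 3334 genes (21.7%). The ratios of CDH2 to CDH5, JUP to CTNNB1 and PECAM1 to CDH5 moved by less than their SD in each alternative. Of 38 named list and pattern genes, 30 kept direction and call in each alternative that tested them, though 4 of these 30, CDH6, CTNNA3 and CADM3 among them, were removed by the stricter filter. None (0) changed direction where tested. CDH13 was not called with the replicate block (-0.52, edgeR adjusted p 0.0552) or without iREC D.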
